A study of Mus musculus with 12 samples.

Results

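Gene deserts are long stretches of chromosome without protein-coding genes. Peaks of H3K36ac, a histone H3 that is acetylated at lysine 36, were taken as desert peaks when their summit lay more than 500 kb outside every protein-coding RefSeq gene of chromosomes 1 to 19. By this rule 10313 of the 108914 peaks on these chromosomes were desert peaks. Their distance from genes chose them, and no measured height, fold or genotype difference did. The deserts themselves were 246 intervals with a combined length of 201.353 Mb, which is 8.39% of the 2399.49 Mb between the lowest and the highest peak coordinate of each chromosome. Their median length was 498.94 kb, the longest spanned 3.54 Mb, and 72 were at least 1 Mb long. A peak was found in 240 of the 246 deserts, and 114 held peaks of every library. The 6 empty deserts were short, the longest of them 83.2 kb.

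The peaks came from chromatin immunoprecipitation of whole liver tumours of mice given anti-PD-1, an antibody that blocks the PD-1 checkpoint of T cells. The LysM-Cre group (3 mice) carried the Cre recombinase that is expressed from the lysozyme promoter in myeloid cells. The Trem2-MKO group (3 mice) lacked Trem2, a lipid-sensing receptor of macrophages, in myeloid cells, and the series calls the tumours hepatocellular carcinoma. Every mouse of both groups received anti-PD-1, so no untreated tumour served as a reference, and the labels used here give no age or sex. Trem2 was deleted in myeloid cells only, whereas the chromatin came from all cells of the tumour: a change in the cells that make up a tumour and a change of the mark within a cell cannot be told apart. Peak positions give no check of the Trem2 deletion.

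In active chromatin, acetylated H3K36 is known from the promoters of transcribed genes, where it shares its lysine with H3K36 methylation, a mark laid down along gene bodies. Gene deserts are often AT-rich and late-replicating, and some of them hold distant enhancers of the developmental genes that flank them. They also hold many long non-coding RNA (lncRNA) genes, some microRNAs, and the variable segments of antigen receptors, which annotations do not count as ordinary protein-coding genes.

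The lists were of unequal length. In order of replicate number, the LysM-Cre lists held 18167, 29731 and 19807 peaks on chromosomes 1 to 19, and the Trem2-MKO lists 29759, 6823 and 4627. Desert peaks numbered 1838, 2931 and 1853 in the LysM-Cre lists and 2536, 572 and 583 in the Trem2-MKO lists. Trem2-MKO replicates 2 and 3 had the fewest peaks, and the smallest peak counts behind a desert value were therefore theirs. Peaks at marker genes gave little check of the tissue. Within 1 kb of the gene, a peak of any library was found for 4 of 10 hepatocyte, 6 of 10 macrophage, 3 of 5 T cell, 4 of 5 endothelial, 3 of 4 cholangiocyte and 4 of 5 stellate cell markers, against 54.4% of all 20665 protein-coding genes. Among these markers Apob, Ptprc, Cdh5 and Sox9 flank a desert.

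Sequence within deserts could be read at the start sites of lncRNA genes. The RefSeq promoter table for GRCm38.p6 (mm10) holds 231 desert windows of 300 bases, from 250 bases before to 50 after a start, and they belong to 206 lncRNA genes. A peak overlapped 11 of the 231 windows (4.76%), against 4.45% of all 31396 windows. The count of 11 fell to 4 with peaks of −log10 p of 5 or more, to 1 with peaks of q of 0.01 or less, to 1 with equal numbers of the strongest peaks per list, and to 7 without LysM-Cre replicate 3. One desert window, that of Gm40178 between Adgrl2 and Adgrl4, had peaks in 2 libraries, against 0.376% of all windows. Its sequence is shown because of these peaks, together with that of Gm6602, which lies in a dense desert on chromosome 3. Both are on the plus strand, the first at chr3:150401664-150401963 and the second at chr3:111881653-111881952. Capitals mark bases inside the peaks.
Gm40178: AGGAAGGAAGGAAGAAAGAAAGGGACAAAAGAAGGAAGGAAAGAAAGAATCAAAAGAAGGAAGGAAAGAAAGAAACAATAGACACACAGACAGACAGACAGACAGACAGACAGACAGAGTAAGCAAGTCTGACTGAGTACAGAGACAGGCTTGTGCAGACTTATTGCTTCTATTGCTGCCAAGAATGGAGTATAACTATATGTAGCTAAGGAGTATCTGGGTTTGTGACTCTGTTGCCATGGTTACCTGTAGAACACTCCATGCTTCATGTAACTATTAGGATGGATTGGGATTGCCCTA
Gm6602: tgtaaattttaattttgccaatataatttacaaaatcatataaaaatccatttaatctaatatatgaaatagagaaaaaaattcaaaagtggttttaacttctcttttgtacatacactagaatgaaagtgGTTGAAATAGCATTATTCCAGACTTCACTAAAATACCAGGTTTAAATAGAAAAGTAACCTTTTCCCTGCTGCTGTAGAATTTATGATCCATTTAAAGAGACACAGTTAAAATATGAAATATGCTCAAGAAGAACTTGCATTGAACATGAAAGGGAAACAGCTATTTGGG

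The Gm40178 window lay whole within a peak of LysM-Cre replicate 3, with a fold of 3.06 over background, and a peak of Trem2-MKO replicate 2, with a fold of 2.49. It holds 8 tandem copies of CAGA, and 5 of the 31396 windows hold 5 or more tandem copies on either strand. In the Gm6602 window a peak of LysM-Cre replicate 3, with a fold of 3.11, covered 169 of the 300 bases. The TATAAA letters of a TATA box occurred on either strand in 28.1% of the desert windows, against 14.96% of lncRNA windows outside deserts and 13.6% of all windows. The CCAAT letters occurred in 51.5%, 35.5% and 37.3% of the same sets, and these searches allow the 2 motifs to overlap. The desert windows were poor in CpG, with a median of 2 per window against 7 in all windows, and their median GC content was 42.3% against 53.0%. Such matches are letters in a window and do not show that a factor binds there.

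Of 980 microRNA genes on chromosomes 1 to 19 in the RefSeq table, 21 lie in deserts, and 8 of those belong to the Mir344 cluster of chromosome 7, in the desert between Gm51483 and the imprinted gene Ndn. Mir344d-3 was the desert microRNA gene with a peak, which was in LysM-Cre replicate 2 at chr7:61726097-61726635, with a fold of 3.51 and a −log10 p of 5.26. This 1 gene of 21 compares with 2.35% of all 980 microRNA genes. In all, 6 of the 21 genes lay within 5 kb of a peak of any library, and the median distance to the nearest peak was 9.82 kb, against 37.0% and 7.87 kb over all 980. Mature sequences of the cluster are grouped below by shared seed, bases 2 to 8 from the 5′ end, which are in capitals. The first 4 share 1 seed, the next 2 another and the next 2, whose whole sequences are the same, a further one. The 3p arm of miR-344h, the last, has a seed shared by no other desert microRNA. The same holds for miR-344b-3p, miR-344c-3p and miR-344d-2-5p, which are not printed.
mmu-miR-344b-5p: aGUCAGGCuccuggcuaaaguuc
mmu-miR-344c-5p: aGUCAGGCugcuggcuagaguac
mmu-miR-344d-1-5p: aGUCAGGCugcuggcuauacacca
mmu-miR-344d-3-5p: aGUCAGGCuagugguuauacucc
mmu-miR-344d-3p: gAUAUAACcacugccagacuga
mmu-miR-344e-3p: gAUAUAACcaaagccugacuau
mmu-miR-344e-5p: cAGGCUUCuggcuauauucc
mmu-miR-344h-5p: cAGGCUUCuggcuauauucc
mmu-miR-344h-3p: gGUAUAACcaaagcccgacugu

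This desert was sparse. It is 234.6 kb long and held 6 peaks in all, of which 3 were in LysM-Cre replicate 2, 2 in Trem2-MKO replicate 1 and 1 in Trem2-MKO replicate 2.

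The first comparison set the density of peaks in deserts against that in the rest of the genome. Desert peaks made up 10.1%, 9.86% and 9.36% of the LysM-Cre lists and 8.52%, 8.38% and 12.6% of the Trem2-MKO lists, against the 8.39% of the span that is desert. All 6 shares lay at or above the desert share of the span within their counting error: the 95% exact (Clopper-Pearson) binomial intervals of Trem2-MKO replicates 1 and 2 included it, at 8.21% to 8.84% and 7.74% to 9.07%, and those of the other 4 lists lay above it. The interval of Trem2-MKO replicate 3, the shortest list, was 11.7% to 13.6%. The intervals cover counting error only and treat the peaks of a list as independent. The peaks come from amplified DNA and their density differed between chromosomes, so the intervals may be too narrow.

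Expressed per Mb, desert peaks were 1.23, 1.19 and 1.13 times as dense as other peaks in the LysM-Cre lists, and 1.02, 0.999 and 1.57 times in the Trem2-MKO lists. The mean log2 ratio was 0.23 ± 0.24 (SD, n = 6), a 1.18-fold higher density, and 5 of 6 libraries had a ratio above 1. The exact two-sided sign-flip permutation test over libraries gave p = 0.0625, where the smallest p it allows is 0.031, so the excess did not pass the threshold of 0.05. The test depended on the least shifted library: the ratio was 1.00 within counting error in Trem2-MKO replicate 2. Deserts drawn at 250 kb or 1000 kb from genes gave ratios of 1.16 and 1.21, each above 1 in every library (exact sign-flip permutation p = 0.031 in both).

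**Figure D1:**
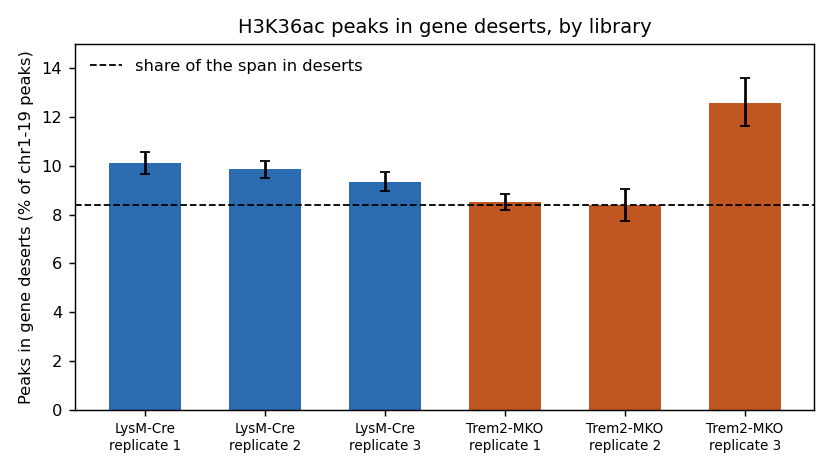
Percent of each library's peaks on chromosomes 1 to 19 that lie in gene deserts (bars), with 95% exact binomial intervals, for the 3 LysM-Cre (blue) and 3 Trem2-MKO (orange) libraries. The dashed line is the 8.39% of the span that is desert. Trem2-MKO replicate 3 stands highest, at 12.6%.

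Mean peak density was lowest beside genes and highest far from them. The measure here is relative density, the share of a library's peaks in a distance class over that class's share of the span. Inside gene bodies it averaged 0.977 ± 0.057 (SD, n = 6). Within 10 kb of a gene, where promoters and nearby enhancers lie, it averaged 0.881 ± 0.062 and was below 1 in all 6 libraries. It averaged 0.970 at 10 to 50 kb, 0.998 at 50 to 100 kb, 1.02 at 100 to 250 kb and 1.11 at 250 to 500 kb. In deserts it averaged 1.14 ± 0.17 at 500 to 1000 kb and 1.22 ± 0.22 beyond 1000 kb, and in the farthest class all 6 libraries were above 1. The class nearest to genes and the class farthest from them each gave p = 0.031 in the exact sign-flip permutation test, and p = 0.125 after Benjamini-Hochberg adjustment over the 8 classes, so no class passed after adjustment. These class tests were added after the profile had been seen. The ratio of the farthest class to the nearest was 1.40 ± 0.35 (SD, n = 6), ranged from 1.06 to 2.03, and was above 1 in every library (exact sign-flip permutation p = 0.031, unadjusted). Trem2-MKO replicate 3 had the widest span, from 0.794 near genes to 1.61 beyond 1000 kb. Just outside the 500 kb limit, at 500 to 550 kb, the mean relative density was 1.15, and just inside it, at 450 to 500 kb, it was 1.12, so no step stood at the limit.

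**Figure D2:**
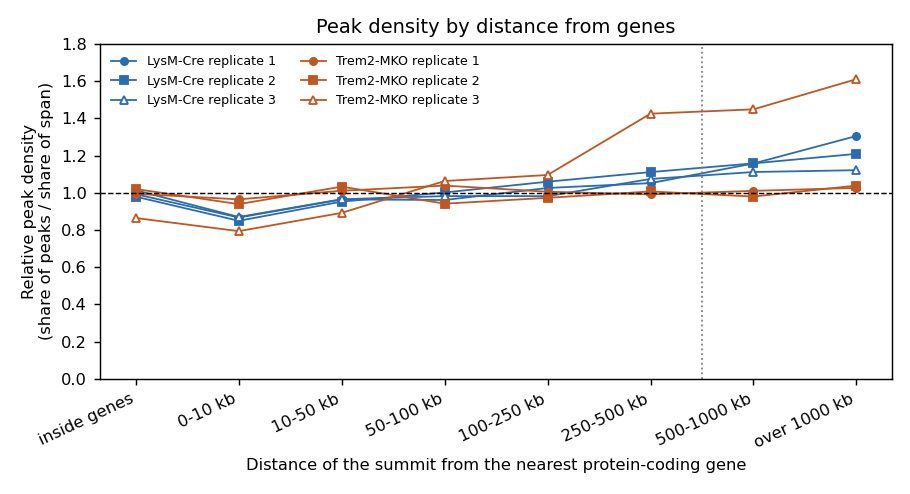
Relative peak density (share of a library's peaks over share of the span) by distance of the summit from the nearest protein-coding gene, 1 line per library, LysM-Cre in blue and Trem2-MKO in orange; the dotted line marks the 500 kb limit of a desert. Every library is below 1 within 10 kb of a gene and above 1 beyond 1000 kb.

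The mean local background at the summits of called peaks was slightly lower in deserts, while its median was the same as elsewhere in every library. Because the fold and p of a peak both depend on its pileup and on the local background, the fragments at each summit and the local background could be worked back from them. The median summit held 11 fragments in each of the 3 LysM-Cre libraries and in Trem2-MKO replicate 1, 20 in Trem2-MKO replicate 2 and 23 in Trem2-MKO replicate 3, and these medians were the same in deserts and elsewhere. The share of peaks whose local background stood at the lowest value of the library was 63.2% to 74.0% in deserts and 57.2% to 67.2% elsewhere. It was higher in deserts in 6 of 6 libraries, by 4.67 to 12.7 percentage points (mean 7.38, p = 0.031, the smallest the exact sign-flip permutation test allows). The mean local background was lower in deserts in all 6, with a mean log2 ratio of −0.06. A lower background lets a smaller pileup reach the caller's threshold, and its part in the density of desert peaks was not tested.

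Chromosomes differed in how densely their deserts were filled. Chromosome 3 held 15.9% of all desert peaks in 9.60% of the desert length, a relative density of 1.86, and the deserts of chromosome 15 followed at 1.69 and those of chromosome 8 at 1.52. The emptiest were the deserts of chromosomes 10, 4 and 14, at 0.75, 0.79 and 0.80. Chromosome 3 was peak-rich throughout: its deserts were only 1.14 times as dense as the remainder of the same chromosome, with 4 of 6 libraries above 1. Set against the remainder of their own chromosome, the deserts of chromosome 17 (mean ratio 1.39, range 1.11 to 1.93) and chromosome 8 (1.27, range 1.07 to 1.40) were the ones denser in 6 of 6 libraries. With the chromosomes standardised, the desert ratio of the whole genome averaged 1.12-fold (exact sign-flip permutation p = 0.09375).

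The flanking genes of the densest deserts were then read out. Over the 213 deserts of at least 100 kb, relative density had a median of 1.07 and ranged from 0.039 to 3.04, and 124 of them exceeded 1. The 10 densest were 6 deserts of chromosome 3, 2 of chromosome 8 and 2 of chromosome 15. They were picked by their density, so the values that follow describe them and are not tested.

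The densest desert, at chr15:28972046-29672533, lies between Dnah5, a dynein heavy chain of motile cilia, and Ctnnd2, a delta-catenin of neuronal junctions. Its 700.5 kb held 16, 18 and 13 LysM-Cre peaks and 15, 8 and 7 Trem2-MKO peaks, in order of replicate number. As relative densities these are 3.02, 2.07 and 2.25, and 1.73, 4.02 and 5.18. Every library stood above 1, and the genotypes overlapped. Its density was 2.44 relative to chromosome 15 as a whole, and its 77 peaks were spread along its length, with no stretch over 53.8 kb free of peaks.

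**Figure D3:**
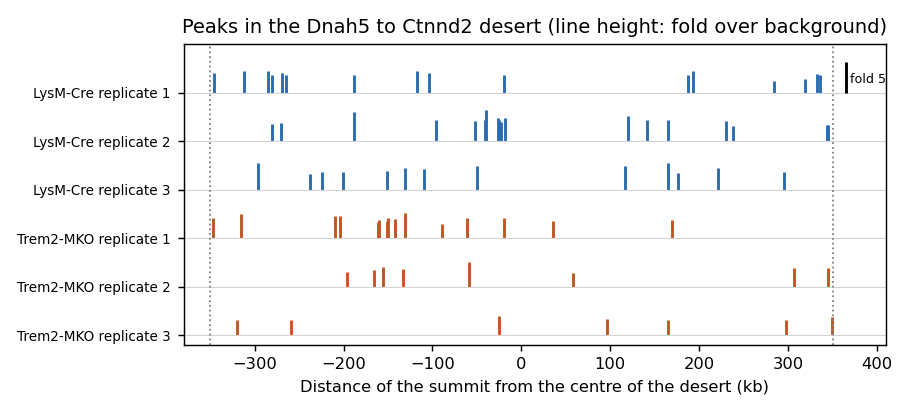
Peaks of each library along the desert between Dnah5 and Ctnnd2, by distance of the summit from the desert's centre in kb; line height is the fold over background (scale bar, fold 5) and dotted lines mark the desert's ends. The 77 peaks are scattered over the 700.5 kb in all 6 libraries and do not gather at 1 position.

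Chromosome 15 holds a further dense desert, between Cdh9 and Cdh10, a pair of type II classical cadherins. At chr15:17357139-18318868 it held 21, 20 and 24 LysM-Cre peaks and 15, 8 and 3 Trem2-MKO peaks. Its mean relative density was 2.23 ± 0.80 (SD, n = 6), and all 6 libraries were above 1. That mean was 3.17 with peaks of −log10 p of 5 or more and 3.63 with peaks of q of 0.01 or less.

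On chromosome 3 the desert with most peaks lies between Prmt6, an arginine methyltransferase that modifies histone H3, and Amy2b, a pancreatic amylase. At chr3:110751000-112647655 it held 29, 55 and 55 LysM-Cre peaks and 47, 12 and 8 Trem2-MKO peaks. Relative densities ran from 2.0 to 3.51, the narrowest proportional spread of the 10, with LysM-Cre replicate 3 highest. The desert between Pabpc4l and Pcdh18, a protocadherin, held 33, 51 and 48 LysM-Cre peaks and 35, 18 and 8 Trem2-MKO peaks over 2.30 Mb, a mean relative density of 2.0 ± 0.56. Both were above 1 in every library. Relative to chromosome 3 as a whole they were 1.47 and 1.22.

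The desert between Stpg2 and Pdha2, the testis form of a pyruvate dehydrogenase subunit, held 12, 14 and 14 LysM-Cre peaks and 4, 7 and 2 Trem2-MKO peaks. Its relative densities ranged from 0.645 in Trem2-MKO replicate 1 to 4.93 in Trem2-MKO replicate 2, so 1 genotype held both the lowest and the highest value. The desert between Ttll7, a tubulin polyglutamylase, and Adgrl2, a latrophilin that binds teneurins, held 85 peaks at a mean relative density of 1.99 ± 1.15. The desert between Ptbp2, a splicing regulator of neurons, and Rwdd3 held 36 at 2.29 ± 1.41. The desert between Nbea, a neuronal trafficking protein, and Tm4sf1 just passed the length limit at 101.9 kb and held 8 peaks, with none in Trem2-MKO replicate 2, which makes its 2.01 ± 1.8 the least precise of the 10. Its density was 0 with peaks of −log10 p of 5 or more and with peaks of q of 0.01 or less. Against chromosome 3 as a whole these 4 stood at 1.6, 1.10, 1.41 and 1.61.

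On chromosome 8 the desert between Slc10a2, the ileal bile acid transporter, and Efnb2, the ephrin-B2 ligand, is 2.51 Mb long and held the most peaks of the 10, with 46, 58 and 55 in LysM-Cre and 66, 19 and 3 in Trem2-MKO. Its mean relative density was 2.06 ± 0.77, and Trem2-MKO replicate 3 fell below 1, at 0.619. The desert between Adam34l, of the ADAM protease family, and Fat1, an atypical cadherin, held 23 peaks in 229.7 kb and reached 6.12 in Trem2-MKO replicate 2 from 4 peaks. Its mean was 2.62 ± 1.81, and 6.94 with peaks of q of 0.01 or less, a value that few peaks can carry, since only 23 were there before the filter.

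**Figure D4:**
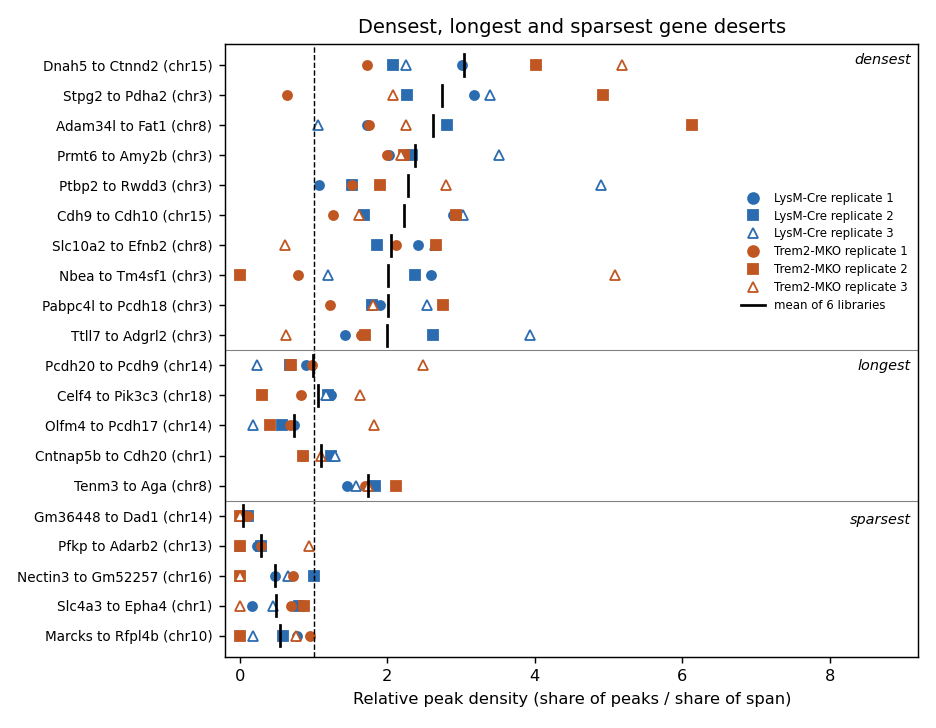
Relative peak density of the 10 densest deserts of 100 kb or more, the 5 longest and the 5 sparsest of 500 kb or more, named by their flanking genes; symbols are single libraries, LysM-Cre in blue and Trem2-MKO in orange, and black bars are means of 6. The dashed line marks a relative density of 1, and the 2 libraries with fewest peaks, Trem2-MKO replicates 2 and 3, often stand at the extremes.

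The longest deserts were not the densest. The first, 3.54 Mb of chromosome 14 between the protocadherins Pcdh20 and Pcdh9, held 128 peaks at a mean relative density of 0.997. Its libraries ranged from 0.239 in LysM-Cre replicate 3 to 2.49 in Trem2-MKO replicate 3, and this last library alone was above 1. Olfm4 to Pcdh17, also on chromosome 14, behaved likewise, with a mean of 0.732 and only Trem2-MKO replicate 3 above 1, at 1.82. The desert between Celf4, an RNA-binding protein of neurons, and Pik3c3, the class III phosphoinositide 3-kinase of autophagy, averaged 1.06 ± 0.45. The desert between Tenm3, a teneurin that guides axons, and Aga, a lysosomal amidase, had the smallest spread of the 5 relative to its mean: it held 33, 68 and 39 LysM-Cre peaks and 63, 18 and 10 Trem2-MKO peaks over 2.99 Mb, and its relative densities lay between 1.46 and 2.12 in all 6 libraries.

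The desert between Cntnap5b, a contactin-associated protein, and Cdh20, a cadherin, was the member of the 5 longest whose genotypes did not overlap. It held 31, 50 and 35 LysM-Cre peaks (relative densities 1.25, 1.23 and 1.29) and 35, 8 and 7 Trem2-MKO peaks (0.861, 0.858 and 1.11). The exact permutation p was 0.1, the smallest that 3 against 3 allows, and 0.857 after adjustment over 240 deserts.

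The sparsest desert of at least 500 kb lies between Gm36448 and Dad1 on chromosome 14 and holds 72 variable segments of the T cell receptor alpha locus. Its 694.1 kb held 2 peaks, 1 in LysM-Cre replicate 2 and 1 in Trem2-MKO replicate 1, a relative density of 0.039. Next were the deserts between Pfkp, a phosphofructokinase, and Adarb2 (6 peaks, 0.293), between the adhesion gene Nectin3 and Gm52257 (17 peaks, 0.476), between the anion exchanger Slc4a3 and the ephrin receptor Epha4 (21 peaks, 0.497), and between the kinase substrate Marcks and Rfpl4b (19 peaks, 0.542). In these 5 deserts 1 value of 30 exceeded 1, that of LysM-Cre replicate 2 in the Nectin3 desert, at 1.01. The Marcks desert held only its 19 peaks before any filter, so few peaks can carry its filtered mean. With peaks of q of 0.01 or less, that mean stood above 1, at 1.79. The Slc4a3 desert then stood at 0.0971, and at 0.101 with −log10 p of 5 or more. The Nectin3 desert stood at 0 with q of 0.01 or less and with equal numbers of the strongest peaks.

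Antigen receptor segments lay in 3 deserts, where the 308 segments themselves cover only 0.135 Mb. Besides the T cell receptor segments, 115 immunoglobulin heavy chain segments lie between Adam6a and Zfp386 on chromosome 12. The 3 deserts together span 4.43 Mb and had relative densities of 0.567, 0.620 and 0.602 in LysM-Cre and 0.619, 0.477 and 0.352 in Trem2-MKO, from 19, 34, 22, 34, 6 and 3 peaks. The other 243 deserts stood at 1.22, 1.19, 1.13, 1.02, 1.01 and 1.53 in the same order, so the segment deserts were lower in 6 of 6 libraries. Without them, a choice made after the values were seen, the desert ratio rose to 1.19-fold and was above 1 in all 6 libraries (exact sign-flip permutation p = 0.031). B and T lymphocytes rearrange these segments to make their receptors.

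Most desert peaks lay outside non-coding genes, which held 906 of the 10313. The 275 lncRNA genes of deserts cover 6.74% of the desert length and held 707 desert peaks, 1.05 ± 0.11 times their share (SD, n = 6; exact sign-flip permutation p = 0.375). The 462 pseudogenes cover 0.971% and held 85 peaks, 0.788 ± 0.20 times their share (p = 0.125 by the same exact test). All non-coding genes together held 0.900 ± 0.083 times their share and were below 1 in 5 of 6 libraries (p = 0.0625 by the same exact test).

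Genes of cell adhesion and axon guidance were common at the edges of deserts. Of 455 genes that flank a desert, 46 belonged to a list of cadherins, protocadherins, contactin-associated proteins, teneurins, ephrin receptors, slits and related families (10.1%), against 0.910% of the genes on these chromosomes. They include Cdh2, Cdh11, Pcdh7, Robo1, Slit2 and Dcc, and they bounded 57 of the 246 deserts. Ion channels and neurotransmitter receptors, such as Grik2 and Kcnd2, made up 3.52% of flanking genes against 1.01% of genes, and developmental transcription factors, such as Sox9, Sox2 and Gata3, 3.96% against 1.09%. Zinc-finger genes made up 1.32% against 1.89%, and none of the 1469 chemosensory receptor genes flanks a desert. These shares are a property of the genome annotation. The mean relative density of peaks was 1.19 beside adhesion and guidance genes, 1.04 beside channels and receptors, 1.04 beside transcription factors, 0.937 beside zinc-finger genes and 1.18 where no listed family was present, with SDs over libraries of 0.18, 0.11, 0.34, 0.15 and 0.19.

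No difference in strength between desert peaks and other peaks passed the test. Their median fold over background was 3.22, 3.02 and 3.25 in LysM-Cre and 3.05, 2.72 and 2.68 in Trem2-MKO, against 3.22, 3.01, 3.25, 3.05, 2.63 and 2.68 for the other peaks. The mean difference in fold was 0.0185 (range 0 to 0.0981), that in median width −1 bp (range −6 to 4) and that in median −log10 p 0.0897 (range 0 to 0.322), each with an adjusted p of 0.75 in the exact sign-flip permutation test over 6 libraries. The share of peaks with q of 0.01 or less averaged only 14.9% in deserts and 14.5% elsewhere over the 6 libraries. The difference was 0.357 percentage points (adjusted p = 0.78125 by the same exact test). Trem2-MKO replicate 3 differed most in this share, with 12.5% of its desert peaks and 9.0% of the others. Among the 100 peaks of lowest p in each list, 10, 8 and 5 were in deserts in LysM-Cre and 6, 4 and 15 in Trem2-MKO. Over the whole lists the desert shares were 10.1%, 9.86% and 9.36% in LysM-Cre and 8.52%, 8.38% and 12.6% in Trem2-MKO.

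Recurrence was the next question: whether a desert peak of 1 tumour was found again in another. Most were not. In LysM-Cre replicates 1, 2 and 3, 10.6%, 8.80% and 10.4% of desert peaks overlapped a peak of another library, against 9.42%, 7.66% and 9.41% of other peaks. In Trem2-MKO replicates 1, 2 and 3 the shares were 8.60%, 15.9% and 15.4%, against 6.59%, 13.4% and 15.8%. Desert peaks were shared more often in 5 of 6 libraries, by 1.24 ± 1.00 percentage points (SD, n = 6; exact sign-flip permutation p = 0.0625), and Trem2-MKO replicate 3 went the other way. A shared peak counts in each library that has it, so the 6 differences are not independent, while the test takes them as independent. Mean peak density was also higher in deserts, which raises the overlap that any placement would give, and its part was not tested. With peaks of q of 0.01 or less alone, the difference turned to −0.71 percentage points (exact p = 0.34375).

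**Figure D5:**
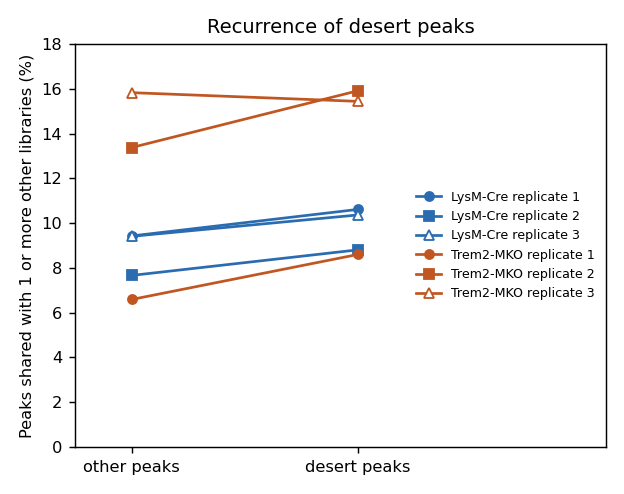
Percent of peaks that overlap a peak of at least 1 other library by 1 bp or more, for desert peaks and other peaks of chromosomes 1 to 19, 1 line per library (LysM-Cre blue, Trem2-MKO orange). The line rises in 5 of 6 libraries and falls in Trem2-MKO replicate 3.

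Between pairs of libraries, LysM-Cre pairs shared 54 to 80 desert peaks (2.32% to 4.35% of a list), Trem2-MKO pairs 19 to 31 (1.22% to 5.42%) and pairs across genotypes 17 to 79 (0.853% to 5.15%). The ranges overlap, but each percent depends on the length of the list it is taken over. Trem2-MKO replicates 1 and 2 shared 31 desert peaks, 1.22% of the longer list and 5.42% of the shorter. The ranges therefore cannot show whether sharing depends on genotype. Merging the lists gave 9765 desert regions. Of these, 496 (5.08%) had peaks in 2 or more libraries, against 4.44% of all 103935 merged regions, and 44 (0.451%) in 3 or more, against 0.318%. None had peaks in all 6. Of the 452 desert regions with peaks in exactly 2 libraries, 164 were in LysM-Cre alone, 44 in Trem2-MKO alone and 244 in 1 library of each genotype. These are 36.3%, 9.73% and 54.0%, against 38.2%, 13.4% and 48.4% of all merged regions with peaks in exactly 2 libraries.

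The most recurrent desert region had peaks in 5 libraries. It lies at chr17:60103927-60104763, 1.09 Mb from Nudt12, a peroxisomal nucleotide hydrolase, in the desert that ends at Efna5, an ephrin ligand. Folds were 3.34, 2.92 and 2.69 in LysM-Cre and 2.63 and 3.22 in Trem2-MKO replicates 1 and 3, and Trem2-MKO replicate 2 had no peak there. The values of the genotypes overlap. The peaks were weak: 2 libraries kept one at −log10 p of 5 or more, 1 with equal numbers of the strongest peaks and 0 at q of 0.01 or less.

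Peaks in 4 libraries were found in 4 desert regions. The region at chr12:63848216-63848715, between Lrfn5, a synaptic adhesion protein, and Fscb, had folds of 3.94 and 3.98 in LysM-Cre replicates 1 and 3 and of 2.49 and 3.75 in Trem2-MKO replicates 2 and 3. The region at chr2:8932714-8934012, 923.7 kb from Gata3, a transcription factor of T cells, had peaks in every LysM-Cre library, with folds of 4.30, 2.70 and 3.75, and in Trem2-MKO replicate 3, with a fold of 2.35. The other pair had the reverse balance, with peaks in every Trem2-MKO library and in 1 LysM-Cre library. They lie at chr3:112367485-112368301 in the dense Prmt6 to Amy2b desert, with Trem2-MKO folds of 3.61, 3.02 and 3.32, and at chr8:44214177-44214921 in the Adam34l to Fat1 desert, with folds of 2.77, 2.23 and 3.37. No lncRNA or other non-coding gene of the table overlaps these 5 regions. At q of 0.01 or less the region near Gata3 kept 1 library, that of the Prmt6 desert 2 and that of the Adam34l desert 1. At −log10 p of 5 or more and with equal numbers of the strongest peaks, the Gata3 region kept 2 libraries and the Adam34l region 1. Without Trem2-MKO replicates 2 and 3, the regions of the Lrfn5, Prmt6 and Adam34l deserts had peaks in 2 libraries each.

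Of the regions in 3 libraries, the strongest lies at chr6:10785791-10786316, 1.11 Mb from Ndufa4 and in the desert that begins at Nxph1, a neurexin ligand. It reached a −log10 p of 16.5 in LysM-Cre replicate 2 and 15.3 in Trem2-MKO replicate 3, the lowest p of any desert peak in either list, and LysM-Cre replicate 3 had a peak there at 5.15. Other regions in 3 libraries, each with 2 LysM-Cre and 1 Trem2-MKO peak, lie in the deserts beside Lrrc4c (from Api5), Slitrk5 (to Gpc5), Cntnap5b (to Cdh20) and Pcdh17 (to Diaph3), which encode neuronal adhesion and synapse-organising proteins. Their mean folds were 4.08, 4.06, 3.84 and 3.78, and at q of 0.01 or less the Cntnap5b region kept 1 library.

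Genotypes were compared last. The mean desert share of peaks was 9.78% ± 0.39 in LysM-Cre and 9.84% ± 2.40 in Trem2-MKO (SD, n = 3 each), a difference of −0.06 percentage points with an exact two-sided permutation p of 1. The spread of the Trem2-MKO lists was set by replicate 3. Without it, the 3 LysM-Cre shares all exceeded the 2 remaining Trem2-MKO shares, and the difference was 1.32 percentage points (exact permutation p = 0.1, the smallest that 3 against 2 allows).

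Single regions rarely split by genotype. Peaks in all 3 LysM-Cre libraries and in none of Trem2-MKO were found in 6 of 9765 desert regions (0.0614%), against 0.05% of all merged regions, and the reverse in 6 (0.0614%), against 0.0221%. LysM-Cre regions of this kind lie in the deserts Lrrc4c to Iftap, Pabpc4l to Pcdh18, Pcdh7 to G6pd2, Slc10a2 to Efnb2, Kcna4 to Mettl15 and Snx16 to Ralyl. Trem2-MKO regions lie in the deserts Tafa2 to Slc16a7, Slitrk5 to Gpc5, Brinp3 to Pla2g4a, Nmbr to Cited2, Mdga2 to Rps29 and Cdh6 to Cdh9. These 12 were singled out after their values had been seen, and mean folds ran from 2.27 to 3.73. Longer lists give more such regions, and Trem2-MKO replicates 2 and 3 were short.

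Whole deserts gave a similar picture. Among 240 deserts with a peak, the shares of the 3 LysM-Cre lists all exceeded those of the 3 Trem2-MKO lists in 18 (7.5%), against 5.21% of 2381 windows of 1 Mb, and the reverse held in 10 (4.17%), against 4.12%. The windows are longer than most deserts, whose median length was 498.94 kb. In the 122 deserts of 500 kb or more the shares were 7.38% and 4.92%. A list with 0 peaks in a desert can stand only on the lower side. Several of the 18 had 0 peaks in Trem2-MKO replicates 2 and 3, such as Sel1l to Gm40892, with 4 peaks in 34.6 kb. No desert passed after Benjamini-Hochberg adjustment (smallest adjusted p 0.857 by the exact permutation test), and at an unadjusted p under 0.05 the count is 0 as well, since 3 against 3 cannot go below 0.1. Among the 18, the desert from Celf2 to Gata3 also holds the 4-library region described above: it had 20, 23 and 12 LysM-Cre peaks (relative densities 1.81, 1.27 and 0.995) and 10, 3 and 2 Trem2-MKO peaks (0.552, 0.722 and 0.710). The desert from Adgrl2 to Adgrl4, which contains the Gm40178 promoter, held 27, 30 and 40 LysM-Cre peaks (2.46, 1.67 and 3.34) and 20, 6 and 3 Trem2-MKO peaks (1.11, 1.46 and 1.07). Among the 10, the desert from Nmbr to Cited2, a transcriptional coactivator, held 14, 18 and 3 LysM-Cre peaks (0.947, 0.744 and 0.186) and 24, 6 and 6 Trem2-MKO peaks (0.991, 1.08 and 1.59). The desert from Lcorl to Slit2, a guidance ligand, held 8, 14 and 8 LysM-Cre peaks (0.941, 1.01 and 0.863) and 17, 6 and 3 Trem2-MKO peaks (1.22, 1.88 and 1.38). These 4 deserts were picked because their genotypes did not overlap, and several Trem2-MKO values rest on 6 peaks or fewer.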

How the data were processed

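The H3K36ac peak lists of 3 LysM-Cre and 3 Trem2-MKO tumours were used, and the 6 input samples were not. Frozen tumour powder was fixed and sheared, per the labels' protocols, and DNA was amplified genome-wide after precipitation, which can copy fragments unevenly. The submitters' processing notes name MACS2, Bowtie2, SAMtools, Picard, Trimmomatic and deepTools and the build mm10, without roles or versions. Per the names of the deposited lists, each library was called against a pooled control at p of 0.01. The authors' deposited columns are a display score, a fold ratio over background, and −log10 p and −log10 q values. Fragments at summits were computed here from the fold and p.

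Genes came from the RefSeq table for GRCm38.p6, and 105 genes that end below 3 Mb bounded no desert. Relative density is the share of peaks over the share of the span. Groups were compared by exact permutation over 3 and 3 libraries (smallest p 0.1), and deserts with the rest by exact sign flips over 6 libraries (smallest p 0.031). P-values measure the spread between these libraries, in which differences between mice and technical differences, such as list length, cannot be told apart. The scripts (Python 3.11.15, pandas 2.3.3, NumPy 2.4.6, SciPy 1.17.1) were tested on simulated data. By rule, genes flanking the 10 densest deserts of at least 100 kb and the 5 longest were named. So were those flanking the 5 sparsest of at least 500 kb and the 10 most recurrent regions. Outside this rule, genes are named as markers, family members, or bounds of antigen receptor, promoter and microRNA deserts. Further named genes bound deserts or regions picked because their genotypes did not overlap. Members and lists were chosen with earlier results of these data known. Alternatives were stricter p or q, equal list lengths, other distances, whole peaks, no chromosome 3, all genes, other overlaps and libraries left out. Some flanking genes are not reported here.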

Additional observations from a re-analysis of the deposited data

How the results depend on the processing

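Short Trem2-MKO lists and 3 mice per genotype limit what could be detected. The mean desert density ratio stayed above 1 under every alternative run. It gave an exact p of 0.031 with −log10 p of 5 or more (log2 0.29), equal numbers of strongest peaks (0.26), limits of 250 kb (0.22) and 1000 kb (0.28), and without the antigen receptor deserts (0.25, chosen after seeing the data). The ratio did not pass with −log10 q of 2 or more (1.22, exact sign-flip p = 0.125) or without chromosome 3 (1.15, exact sign-flip p = 0.09375). Nor did it with whole peaks in deserts (1.18, exact sign-flip p = 0.0625). Without Trem2-MKO replicates 2 and 3 it was 1.14 (exact sign-flip p = 0.125, the smallest possible there). With all genes of the table as bounds only 2.33 Mb of desert and 104 peaks remained, and the ratio was 1.05 (exact p = 0.6875). Leaving out 1 library gave log2 ratios of 0.15 to 0.28. The exclusion of 1 library always raises the smallest p to 0.0625, so the classes nearest to and farthest from genes could not pass then. At q of 0.01 or less their exact p-values were 0.0625 and 0.25. The desert share difference ran from −0.78 to 1.32 percentage points with 1 library left out and was 1.26 without Trem2-MKO replicates 2 and 3. More frequent sharing of desert peaks passed at 250 kb (1.14 percentage points) and 1000 kb (2.43). With equal numbers of the strongest peaks the difference was only 0.12 (exact sign-flip p = 0.84375). It was 0.41 with −log10 p of 5 or more (exact sign-flip p = 0.4375) and 0.80 without chromosome 3 (exact sign-flip p = 0.1875). The sharing difference turned to −0.71 at q of 0.01 or less, and ran from 0.74 to 1.45 with 1 library left out.

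Strength differences near 0 changed sign. The width difference became 1.17, 3.25, 1.75 and 0.667 bp with −log10 p of 5 or more, −log10 q of 2 or more, equal numbers and 250 kb. The −log10 p difference became −0.0361 with −log10 p of 5 or more and −0.0295 at 1000 kb. The difference in the share with q of 0.01 or less became −0.691, −0.755, −0.0266 and −0.0770 percentage points with −log10 p of 5 or more, equal numbers, 250 kb and without Trem2-MKO replicates 2 and 3, and ran from −0.276 to 0.642 with 1 library left out. It has no value under the q alternative, which keeps only such peaks. The cause of these changes was not tested.

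Counts split by genotype moved most. LysM-Cre regions (6) became 1, 1, 1, 10 and 2 with −log10 p of 5 or more, −log10 q of 2 or more, equal numbers, 250 kb and 1000 kb, and 6 to 72 with 1 library left out, where fewer libraries have to match. Trem2-MKO regions (6) became 2, 0, 2 and 1 with −log10 p of 5 or more, −log10 q of 2 or more, equal numbers and 1000 kb, 3 when merged on summits, and 6 to 26 with 1 library left out. That count was not run without Trem2-MKO replicates 2 and 3, where 1 library would stand for the genotype. Deserts higher in LysM-Cre (18) became 4, 32, 7 and 64 with equal numbers, 250 kb, 1000 kb and without Trem2-MKO replicates 2 and 3, and 25 to 37 with 1 library left out, where fewer values have to be ordered. Deserts higher in Trem2-MKO (10) became 3, 2, 1, 16, 2 and 33 with −log10 p of 5 or more, −log10 q of 2 or more, equal numbers, 250 kb, 1000 kb and without Trem2-MKO replicates 2 and 3, and 11 to 23 with 1 library left out.

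The labels' replicate numbers gave no sign of pairing. Correlations over deserts were taken on each library's departure from the mean of its genotype. For same-numbered libraries they were −0.18, −0.35 and −0.45. Those of differently numbered libraries of the 2 genotypes ran from −0.27 to 0.45. Departures from a mean cancel within a genotype, so correlations of both signs are forced. These values cannot show how the samples were paired. With the replicate number as a block, the desert share difference stayed at −0.06 percentage points (exact p = 1, smallest possible 0.25), and 36 and 22 deserts were higher in LysM-Cre and in Trem2-MKO in every pair, with none passing after adjustment. The alternatives for single deserts, single regions, promoter windows and distance classes were chosen after seeing the data. Whole chromosome lengths were not used here, so that alternative was not run.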
